A study of Mus musculus with 68 samples.

Results

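The genes described here encode the proteasome and its helpers. They were taken as every gene whose name begins with Psm, a letter from a to g and a digit, which found 50 of the 24421 reference gene symbols measured in this mouse embryo series, each present in all 68 libraries. By the known roles of their products, 7 form the alpha ring and 7 the beta ring of the 20S core particle, 5 replace core subunits in particular cells, 9 belong to the base and 8 to the lid of the 19S regulatory particle, 6 are activators or an inhibitor of the core, and 7 assist assembly. The last, Psmc3ip, carries a subunit's name but encodes a meiotic recombination factor that was isolated as a partner of Psmc3. It was kept apart from the parts of the complex but is included in the sums and counts over all 50 genes.

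The proteasome is the barrel in the cytoplasm and nucleus that degrades proteins tagged with ubiquitin. The alpha rings of the 20S core gate entry, the beta rings hold the proteolytic sites inside, and the 19S particle recognises the ubiquitin chain, removes it, unfolds the substrate with its ATPases and feeds it to the core. In oocytes and early embryos this route is known to clear maternal proteins after fertilization, and in immune cells and cells exposed to interferon the catalytic subunits Psmb5, Psmb6 and Psmb7 are exchanged for Psmb8, Psmb9 and Psmb10.

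RNA-seq was made by a Smart-seq2 protocol with polyA capture from cumulus cells (CC), which surround the oocyte and served as nuclear donors, and from embryos made by somatic cell nuclear transfer (SCNT) of those nuclei into enucleated oocytes of adult BDF1 mice (B6D2F1, the cross of C57BL/6j females with DBA/2 males), activated with SrCl2 and cytochalasin B. CCs had 3 libraries and the SCNT embryos 53: 6 each at 6 h and 14 h post activation (hpa, 1-cell embryos), the early and late 2-cell stage (E2C, L2C), the 8-cell stage (8C), the morula, the inner cell mass (ICM) and the trophectoderm (TE) of day 4 blastocysts, and 5 at the 4-cell stage (4C). A separate experiment injected fertilized zygotes with a morpholino (MO, an antisense oligonucleotide that blocks splicing or translation) against Max or against Mcrs1. Its blastocysts gave 2 libraries each of ICM and TE for Max MO, Mcrs1 MO and control embryos. Their strain is BDF1 by the labels but C57BL/6j by the study's methods for fertilized embryos. The labels call the control libraries untreated, whereas the study describes them as injected with a random control morpholino. It gives each of the 3 morpholinos of these libraries a different concentration, the control the highest, so dose and target cannot be told apart. ICM and TE were parted by micromanipulation. The study describes replicates as biologically independent, but the labels name neither batch nor embryo collection, and the p-values below measure the spread between these libraries.

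Levels are transcripts per 1000000 (TPM), a read share corrected for transcript length. Aligned depth was 1.00 to 5.15 gigabases per library. Transcripts of reference genes held 81.8 to 82.5% of TPM in CC, 30.4 to 90.9% in SCNT embryos and 85.5 to 94.4% in the morpholino experiment, the rest lying on newly assembled transcripts. The libraries that stood apart were L2C replicate 1, at that 30.4%, SCNT ICM replicates 1 to 3, with 6177 to 6771 genes at 1 TPM or more against 9011 to 10032 in replicates 4 to 6, and control ICM replicate 1, whose 8 TE markers summed to 16317 TPM against 647 in replicate 2 and 18697 to 20864 in the control TE libraries. Cumulus markers summed to 3204 to 4623 TPM in CC and 8.56 to 20.9 TPM at 6 hpa, where oocyte markers held 4442 to 8499 TPM. Max itself was at 38.0 and 8.42 TPM in control ICM, 6.82 and 0.443 in Max MO ICM, 34.5 and 28.5 in control TE and 16.3 and 8.68 in Max MO TE, and Mcrs1 was at 253 and 310 TPM in control ICM, 86.8 and 73.4 in Mcrs1 MO ICM, 219 and 294 in control TE and 41.1 and 45.5 in Mcrs1 MO TE. In the Mcrs1 MO libraries Max was at 14.4 and 9.25 TPM in ICM and 17.6 and 15.7 TPM in TE. By the limma test described below Max was lower in Max MO ICM (adjusted p = 0.0397) but not called in Max MO TE (adjusted p = 0.39). A splice- or translation-blocking morpholino need not lower its target's RNA, so these levels are a partial check of the labels.

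Proteasome RNA was high in the donor cells, low in the SCNT embryo through the 2-cell stage, and highest in the morula. The TPM of the 50 genes summed to 14836, 15723 and 15737 in the 3 CC libraries. Through the first cycles the lowest, median and highest sums were 4913, 6577 and 6898 TPM at 6 hpa, 2947, 5908 and 7394 at 14 hpa, 2948, 4022 and 4786 at E2C and 3405, 6001 and 7165 at L2C. Every one of these 24 libraries lay below every CC library.

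From the 4-cell stage the sum climbed to 10636, 13998 and 19697 TPM, then to 20501, 22504 and 23648 at 8C and 28184, 31831 and 33027 in the morula. ICM libraries held 21372, 23406 and 25177 TPM and TE libraries 20792, 22419 and 23599, so both lay below every morula library and overlapped each other. Per reference TPM, which sets aside the unannotated transcripts, the median share of the 50 genes was 1.92% in CC, 0.611% at E2C, 1.09% at L2C, 2.59% at 4C, 2.73% at 8C, 3.64% in the morula, 2.81% in ICM and 2.61% in TE. In bulk libraries a lower share of RNA per cell and fewer cells that express the gene cannot be told apart.

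Some stages split by replicate number. At 14 hpa replicates 1 to 3 summed to 2947 to 4806 TPM and replicates 4 to 6 to 7011 to 7394. At E2C the ranges were 2948 to 3371 and 4674 to 4786, and at 4C 10636 to 13998 and 19000 to 19697, where the mean share of TPM on reference genes was also 49.8% against 74.6%. At the other stages the ranges of this sum overlapped. Per reference TPM the 4C ranges overlapped too, at 2.42 to 2.64% and 2.59 to 2.60%. By that share replicates 1 to 3 lay below the others at 14 hpa, E2C and 6 hpa (0.716 to 0.890% against 0.898 to 0.957%). They lay above at L2C (1.12 to 1.39% against 0.956 to 1.06%) and in TE (2.62 to 2.85% against 2.29 to 2.60%). Mean reference shares also differed at L2C (44.5% against 59.8%), ICM (77.4% against 89.3%) and TE (82.1% against 90.4%).

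**Figure D1:**
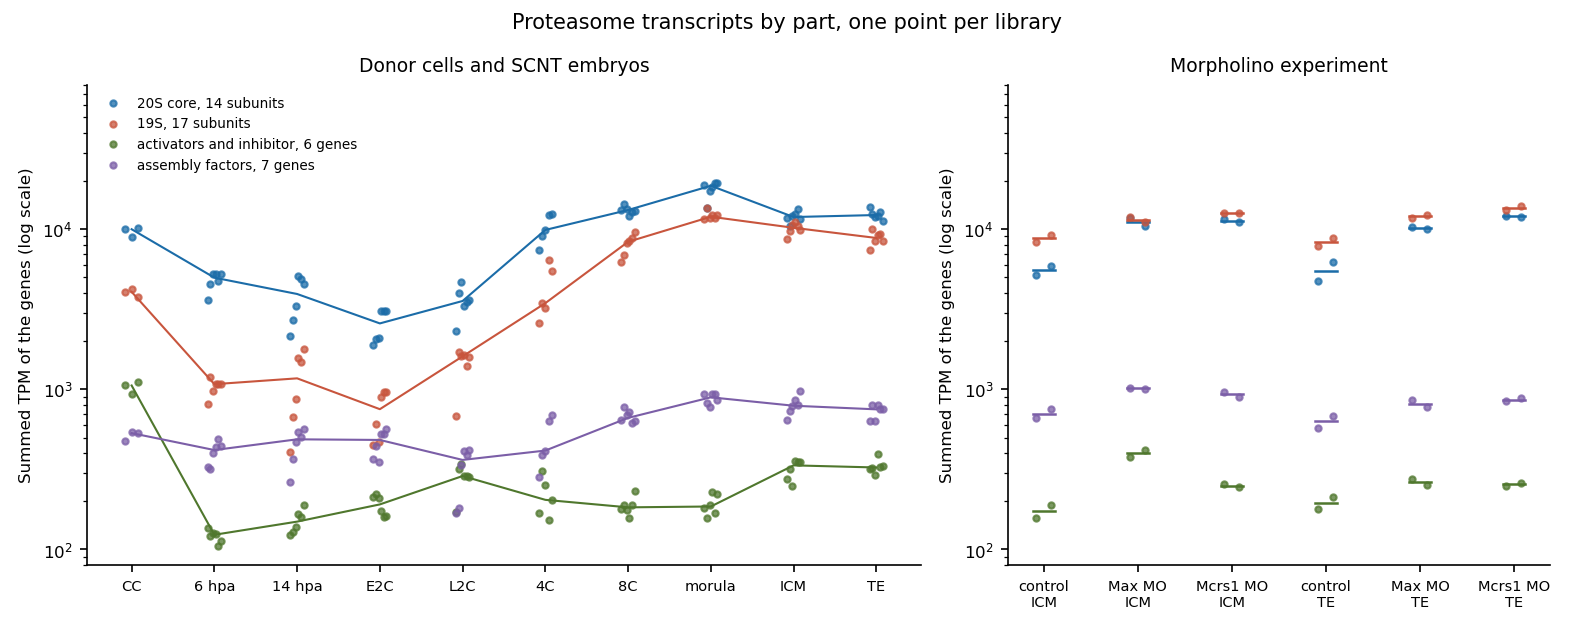
Summed TPM (log axis) of the proteasome parts in every library, from CC through the SCNT stages (left, lines joining group medians) to the morpholino experiment (right, bars at group medians), with a point for each library. The 20S core and the 19S particle dip through the 2-cell stage and peak in the morula (medians 18654 and 11955 TPM), while the activators are highest in CC (median 1057 TPM).

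The core and its regulator did not keep a fixed proportion. The 14 constitutive 20S genes had median sums of 9988 TPM in CC, 4980 at 6 hpa, 2579 at E2C, 3561 at L2C, 9887 at 4C, 13168 at 8C and 18654 in the morula. The 17 genes of the 19S particle had medians of 4060 TPM in CC, 1077 at 6 hpa, 752 at E2C, 1606 at L2C, 3453 at 4C, 8337 at 8C and 11955 in the morula. The median level of a 20S gene was thus 2.28 times that of a 19S gene in CC, 2.65 times at 6 hpa and 3.36 times at 4C, then 1.63 times at 8C, 1.37 times in the morula, 1.22 times in ICM and 1.39 times in TE. Single libraries ranged from 1.24 to 1.63 times in the morula and from 1.95 to 2.33 times in CC. At 4C replicates 1 to 3 were at 5.62, 3.36 and 4.60 times and replicates 4 and 5 at 1.99 and 2.39 times. Replicates 1 to 3 also lay above the others at E2C (3.08 to 3.54 against 1.32 to 1.93 times). The same held at L2C (2.90 to 6.49 against 2.73 to 2.76) and 8C (1.85 to 2.48 against 1.30 to 1.42).

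**Figure D2:**
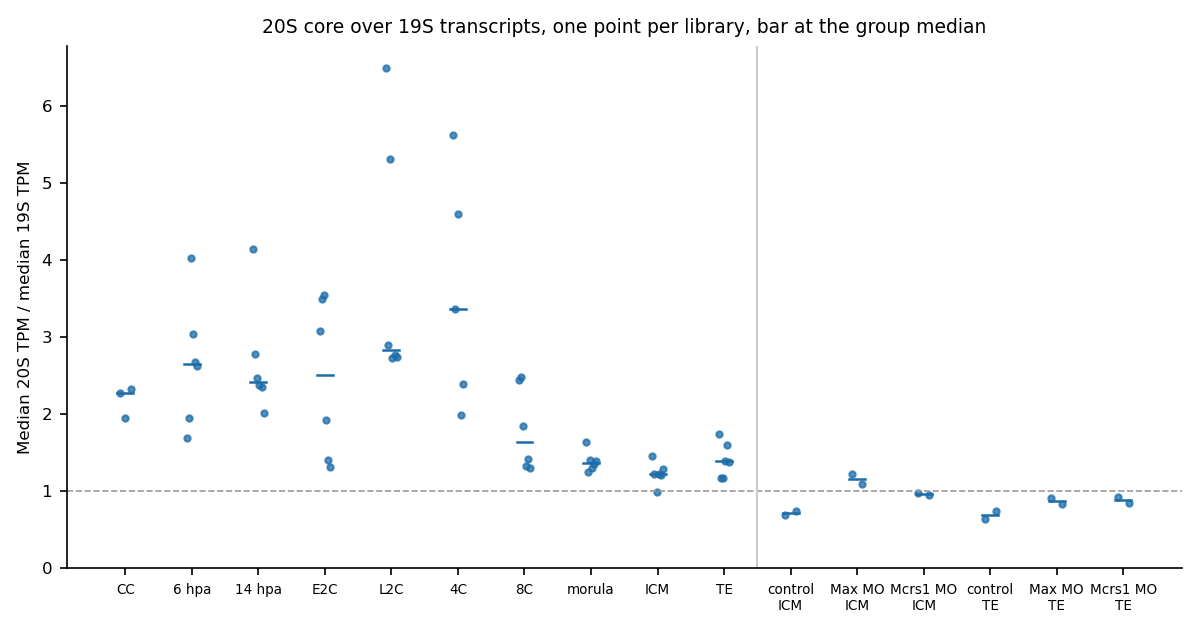
Ratio of the median TPM of the 14 core 20S genes to the median TPM of the 17 genes of the 19S particle, on a linear axis, with a point for each library, a bar at the group median and a dashed line at 1. Group medians run from 2.28 in CC up to 3.36 at 4C and down to 1.22 in SCNT ICM, and the control blastocysts of the morpholino experiment lie at 0.643 to 0.738. At 4C replicates 1 to 3 lie at 3.36 to 5.62 and replicates 4 and 5 at 1.99 and 2.39.

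The subunits of a complex that is built in equal copies were far from equal in RNA in the 1-cell embryo. At 6 hpa the core subunit with the highest mean was Psma7, an alpha ring gene, at 2058 TPM, and the lowest was Psmd13, a lid subunit, at 0.583 TPM, a 3528-fold range. That range rests on Psmd13 near zero, as the next lowest was Psmb5 at a mean of 7.52 TPM. In the morula Psma7 was highest at 3090 TPM and Psmd13 and Psmd3 were lowest, both at a mean of 209 TPM, a range of 14.8-fold. Psmd3, another lid subunit, was at 555 TPM in morula replicate 2 and at 92.6 to 178 TPM in the others, so which of these was lowest rests on that library. In CC the range was 97.5-fold. The standard deviation of log2(TPM + 1) across the 14 core 20S genes of a library had a median of 2.52 at 6 hpa, 1.17 at L2C and 0.66 in the morula, against 0.75 in CC. Across the 17 genes of the 19S particle it moved less, with medians of 1.83, 1.45 and 1.00 at these stages, 1.55 at 4C and 1.33 in CC. Of the 31 core subunits, 10 had a mean of 100 TPM or more at 6 hpa, 6 at E2C, 17 at L2C, 27 at 4C and 31 in the morula. The mean was highest in the morula for 22 of the 31 among the SCNT stages, in ICM for 6, at 8C for 2 and at 6 hpa for Psma2 alone.

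**Figure D3:**
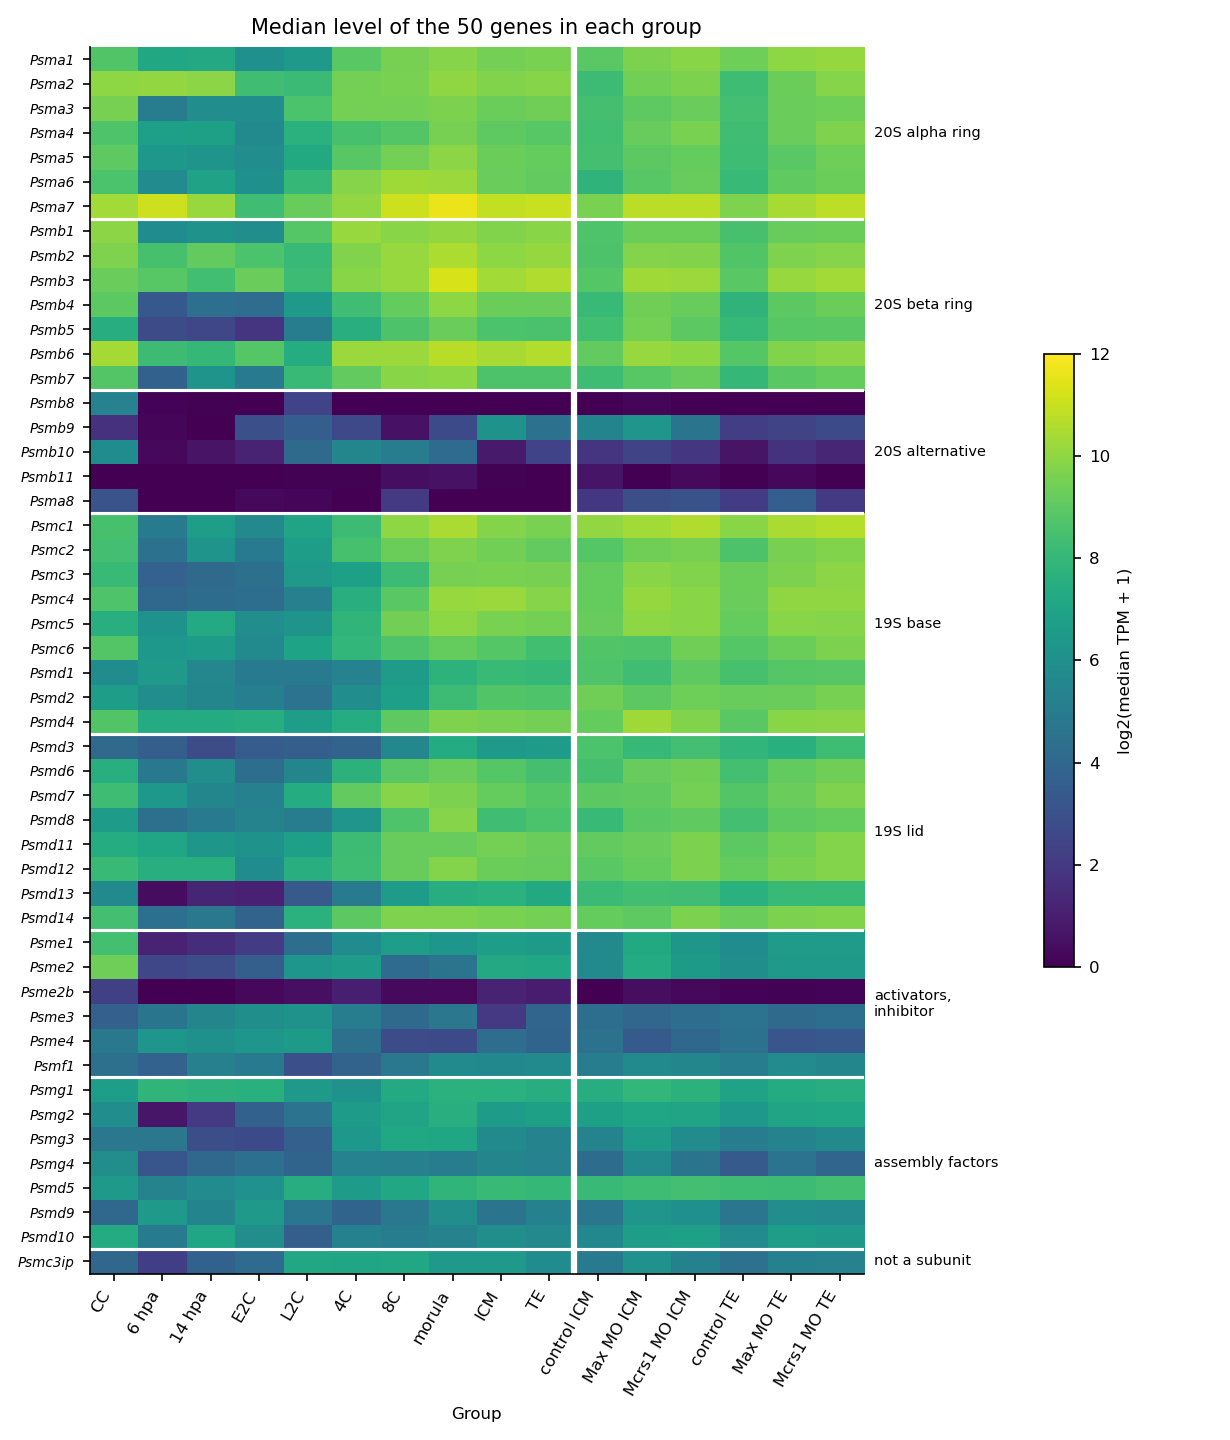
Log2 of the median TPM + 1 of each of the 50 genes (rows, grouped by role) in CC, the 9 SCNT groups and the 6 morpholino groups (columns), from dark blue at 0 to yellow at 12. Bright cells of Psma7 and Psma2 stand beside dark cells of Psmd13, Psmb4 and Psme1 at 6 hpa, and the core rows even out by the morula.

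Steps between stages were tested with limma on log2(TPM + 1) over 12084 genes, 48 of the 50 among them, with Psmb11 (the thymus-specific beta subunit) and Psme2b below a mean of 1 TPM. To be counted as higher or lower, a gene needed a 2-fold difference or more and, after Benjamini-Hochberg adjustment, a p under 0.05. Values after ± are standard errors. From CC to 6 hpa 34 of the 48 fell and 2 rose, against 35.6% of all genes lower and 25.8% higher. The median log2 difference was -2.21 for the 48 and -0.28 for all genes. In this step fell and rose compare cumulus cells with enucleated oocytes that had received a donor nucleus, not the same cells over time. All 8 tested cumulus markers fell and all 8 oocyte markers rose over the same step, and their part in the result was not tested.

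The largest falls were in the PA28 activator, which opens the alpha ring gate without ATP. Psme1 was at 280, 338 and 343 TPM in CC, and 0.418, 1.22 and 5.87 TPM were its lowest, median and highest at 6 hpa, a log2 difference of -7.00 ± 0.66 (adjusted p = 1.33e-13). Its partner Psme2 went from a mean of 647 to 5.64 TPM (-6.72 ± 0.57). No library of either group overlapped the other for these genes.

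In the core, Psmb4, a beta ring scaffold, fell from a mean of 492 to 9.47 TPM (-5.61 ± 0.37), Psmb7, the trypsin-like subunit, from 446 to 11.6 TPM (-5.24 ± 0.33), and the alpha subunits Psma3 and Psma6 by 4.39 and 2.94 on the log2 scale. In the 19S particle, the ATPases Psmc4 and Psmc3 fell by 5.02 and 4.41, the lid subunit Psmd13 by 4.73 and Psmd14, the deubiquitinase of the lid, by 4.13. Among assembly chaperones Psmg2 fell by 5.00 and Psmg4 by 2.73. Psmc3ip fell from 17.4 to 4.37 TPM.

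Alpha ring genes Psma2 and Psma7 were among the 12 without a call. Psma2 was at 924, 983 and 1090 TPM in CC and at 972, 1074 and 1448 TPM (lowest, median, highest) at 6 hpa, with overlapping groups. Psma7 was at 1179, 1279 and 1313 TPM in CC and at 1488, 2189 and 2301 TPM at 6 hpa, where all 6 libraries lay above CC, but the fold of 1.62 had an adjusted p of 0.0574. Psme4, which encodes the PA200 activator known from germ cells, and Psmd9, a chaperone of the 19S base, were the 2 that rose, from means of 29.1 to 78.8 TPM (1.39 ± 0.44) and 14.2 to 79.0 TPM (2.29 ± 0.59). Psma2, Psmd9 and this call of Psme4 were singled out after their values were seen.

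Of the 48 genes 6 were called within the 1-cell stage and 9 from there into the early 2-cell stage. From 6 to 14 hpa 5 of 48 rose and 1 fell, against 6.17% and 5.02% of all genes. Psmb7 rose from a mean of 11.6 to 68.3 TPM (2.38 ± 0.27, adjusted p = 2.14e-09), with no overlap between the stages. Psmd10, also known as gankyrin and a chaperone of the 19S base, rose from 30.4 to 116 TPM (1.83 ± 0.30). The ATPases Psmc2, Psmc1 and Psmc5 rose by 1.60, 1.34 and 1.24 on the log2 scale, and the lid subunit Psmd7 fell by 1.11. Replicate numbers deviated together at these 2 stages, though only 1 of the 6 correlated best with its own number, and with the replicate number as a block 7 genes were called, 5 higher and 2 lower. In replicates 1 to 3 alone 2 rose and 6 fell, and in replicates 4 to 6 alone 13 were called.

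Between 14 hpa and E2C 4 rose and 5 fell, against 2.9% and 3.1% of all genes. The 2 most abundant alpha ring genes fell: Psma2 from a mean of 943 to 319 TPM (-1.73 ± 0.21, adjusted p = 7.25e-08) and Psma7 from 1156 to 329 TPM (-1.87 ± 0.27), with no library in common between the stages. Psmc5, Psmd12 (a lid scaffold) and Psmc2 fell by 1.92, 1.56 and 1.30 on the log2 scale. The beta subunits Psmb3 and Psmb6 rose from 298 to 610 TPM and from 229 to 459 TPM, Psmb9 from 0.217 to 6.65 TPM and the chaperone Psmg2 from 2.60 to 15.1 TPM. The last 2 rises lay in replicates 1 to 3, where E2C libraries held 11.8 to 13.1 TPM of Psmb9 and 20.1 to 36.0 TPM of Psmg2, against 0 to 1.55 and 1.76 to 4.68 TPM in replicates 4 to 6. In replicates 4 to 6 alone the difference was 0.47 for Psmb9 (adjusted p = 0.708) and near 0 for Psmg2. Replicates 1 to 3 alone gave 12 higher and 5 lower, and replicates 4 to 6 alone gave 13 lower and 0 higher.

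Between E2C and L2C, the interval in which the mouse embryonic genome is known to be switched on, 22 rose and 6 fell, against 23.6% and 11.1% of all genes, and the median log2 difference was 0.93 against 0.26. Psmd14 was at 9.98, 13.4 and 23.5 TPM at E2C and at 97.9, 205 and 469 TPM at L2C (lowest, median, highest), a rise of 3.76 ± 0.32 (adjusted p = 1.79e-13). No library of the later stage overlapped the earlier for this gene. In the beta ring Psmb1, a structural subunit, rose from a mean of 60.8 to 503 TPM (3.08 ± 0.19) and Psmb5, the chymotrypsin-like subunit, from 2.95 to 32.2 TPM (2.995 ± 0.44). In the alpha ring Psma3 and Psma6 rose by 2.70 and 2.11, in the 19S particle Psmc2, Psmc3 and Psmd13 by 1.80, 1.75 and 2.12, and Psmc3ip rose from 15.7 to 121 TPM.

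The 6 falls included 3 of the 7 assembly factors, 2 beta ring genes and 1 activator. The 19S chaperones Psmd10 and Psmd9 fell from means of 64.0 to 12.7 TPM (-2.16 ± 0.30) and 83.2 to 24.9 TPM (-2.16 ± 0.48), and no assembly factor rose. In the core 4 of 7 alpha ring genes rose and 0 fell, and 4 of 7 beta ring genes rose and 2 fell, Psmb3 from a mean of 610 to 246 TPM and Psmb6 from 459 to 158 TPM, both named after their values were seen. Of the 17 genes of the 19S particle 8 rose and 0 fell. Without L2C replicate 1, an alternative chosen after seeing the data, 25 rose and 6 fell.

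From L2C to 4C the calls were mostly upward for the proteasome and mostly downward for all genes. Of the 48 genes 30 rose and 3 fell, against 11.7% and 26.5% of all genes, with a median log2 difference of 1.34 against -0.33. The rise took in 7 of 7 beta ring, 5 of 7 alpha ring, 5 of 9 base and 7 of 8 lid genes. Psmb6, the caspase-like subunit, was at 53.3, 170 and 245 TPM at L2C and at 1047, 1186 and 1307 TPM at 4C (3.01 ± 0.22, adjusted p = 2.61e-16). Psmb5 rose from a mean of 32.2 to 255 TPM (2.96 ± 0.46) and Psma1, an alpha subunit, from 88.4 to 446 TPM (2.37 ± 0.25). The groups did not overlap for these 3 genes.

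In the 19S particle Psmd6 (2.61 ± 0.43), Psmd7 (1.91 ± 0.30), Psmc4 (2.49 ± 0.52) and Psmc5 (2.16 ± 0.38) rose most within lid and base. The chaperones Psmg3 and Psmg2, which guide the building of the alpha ring, rose by 2.78 and 2.52, and Psmf1, the inhibitor PI31, by 1.43. In replicates 4 to 6 alone the rise of Psmf1 was 0.15 (adjusted p = 0.64). The genes that fell were Psme4 (-1.87 ± 0.37), Psmb9 (-2.16 ± 0.56) and Psmb8, the last named outside the rule for named genes after its values were seen.

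From 4C to 8C the gains were in the 19S particle. There 9 of 17 genes rose against 0 of 14 in the 20S core, for which the medians of the log2 difference were 1.09 and 0.45. Over the 48 genes 12 rose and 2 fell, against 11.6% and 8.39% of all genes. The lid subunit Psmd8 rose from a mean of 116 to 381 TPM (1.89 ± 0.42, adjusted p = 0.00066), the ATPase Psmc1 from 350 to 923 TPM, Psmd4, a ubiquitin receptor of the base, from 223 to 514 TPM and Psmd13 from 37.4 to 95.1 TPM. Psmd8 was the only one of these 4 whose stages did not overlap. The chaperone Psmg1 rose by 1.31 ± 0.24, and Psme2 and Psme4 fell by 1.74 and 1.75. When TPM was rescaled over reference genes alone, which shifted the median of all genes from 0.03 to -0.20, 3 rose and 2 fell, and the median of the 48 was 0.24 in place of 0.71.

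Between 8C and morula 7 rose and 2 fell, against 9.05% and 3.53% of all genes. The scaffolds of base and lid led, Psmd2 from a mean of 114 to 349 TPM (1.64 ± 0.32, adjusted p = 0.000197) and Psmd3 from 50.7 to 209 TPM (2.18 ± 0.68), followed by Psmc3 (1.30 ± 0.35), Psmd8 (1.24 ± 0.40) and, in the beta ring, Psmb3 (1.02 ± 0.22). Psmb9 rose and Psma8 fell, both at low levels described below. Without morula replicate 2, an alternative chosen after seeing the data, Psmd3 (1.84, adjusted p = 0.0857) and Psmd8 (1.15, adjusted p = 0.0682) lost their call.

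At the blastocyst stage most core genes were below the morula without a call. In ICM 3 of 48 rose and 5 fell, against 8.93% and 15.1% of all genes, and in TE 2 rose and 4 fell, against 11% and 10.9%. These comparisons share the morula libraries. Psmb7 was at 868, 999 and 1114 TPM in the morula, at 263, 394 and 586 TPM in ICM and at 305, 406 and 500 TPM in TE, a log2 difference of -1.27 ± 0.27 and -1.35 ± 0.27. Neither lineage reached the lowest morula library. Psmd8 fell from a mean of 890 TPM to 300 in ICM and 370 in TE, and Psma6 from 1206 to 570 TPM in TE. The chaperone Psmg3 fell in ICM by 3.16 ± 0.77 with overlapping libraries (0.544 to 130 TPM in ICM and 117 to 168 in the morula). Leaving out ICM replicates 1 to 3 was an alternative chosen after seeing the data. The ICM differences were then -0.22 for Psmg3 (adjusted p = 0.901) and -1.26 for Psmd8 (adjusted p = 0.0618).

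ICM and TE of the SCNT blastocyst differed in 2 of 48 genes, both lower in ICM, against 4.25% of all genes lower and 1.54% higher. They were Psme3 (-1.77 ± 0.51, adjusted p = 0.0265) and Psmb10 (-1.20 ± 0.38, adjusted p = 0.0443). Psme3 encodes PA28 gamma, the nuclear activator, and was at 0.293 to 0.456 TPM in ICM replicates 1 to 3, 5.38 to 10.8 TPM in ICM replicates 4 to 6, and 0.646 to 26.9 TPM in TE. Without ICM replicates 1 to 3, the libraries with the fewest genes, no member was called.

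The 3 proteolytic subunits of the constitutive core followed different courses. Psmb6 kept the highest level of the 3 in every SCNT group but L2C, with medians of 294 TPM at 6 hpa, 453 at E2C, 1175 at 8C and 1679 in the morula. Psmb7 had medians of 12.04, 30.9, 930 and 999 TPM at the same stages, and 274 TPM at L2C. Psmb5 was the lowest, at medians of 5.84 TPM at 6 hpa, 4.85 at 14 hpa, 2.49 at E2C, 31.6 at L2C, 187 at 4C and 607 in the morula, against 174 TPM in CC.

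Their immune counterparts together made up at most 21.8% of catalytic subunit TPM in any library. Psmb8 and Psmb10 had their highest medians in CC, and among the SCNT stages the highest medians were at L2C for Psmb8, at 4C for Psmb10 and in ICM for Psmb9. Psmb8 was at 29.6, 38.5 and 40.2 TPM in CC, 0 to 24.6 TPM at L2C with a median of 4.27, and at a median of 0 or near it elsewhere. Psmb10 was at a median of 56.9 TPM in CC, 0.182 at 6 hpa, 16.6 at L2C, 44.3 at 4C, 32.4 at 8C, 17.4 in the morula, 0.851 in ICM and 4.39 in TE. Psmb9, by contrast, was at 2.10, 2.32 and 7.09 TPM in CC and at 59.1, 69.1 and 92.2 TPM in ICM, with TE between them at 19.5, 21.2 and 34.8 TPM. Every ICM library lay above every TE library for Psmb9, though the ICM to TE difference of 1.53 ± 0.53 had an adjusted p of 0.0786.

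From the morula, Psmb9 rose in ICM from a mean of 7.15 to 70.9 TPM (3.23 ± 0.53, adjusted p = 4.67e-06) and in TE to 24.4 TPM (1.71 ± 0.53, adjusted p = 0.0134), while Psmb10 fell by 2.75 ± 0.38 and 1.55 ± 0.38. The immune subunits together made up a median of 4.90% of catalytic subunit TPM in CC, 0.115% at 6 hpa, 8.54% at L2C (2.92 to 21.8%), 0.664% in the morula, 3.03% in ICM and 1.11% in TE. At L2C the share split by replicate number, 10.4 to 21.8% in replicates 1 to 3 and 2.92 to 6.68% in replicates 4 to 6. Among leukocyte markers, Ptprc was at 0 in all ICM and TE libraries and Tyrobp at most at 0.114 TPM. The lysosomal gene Cd68, which other cells also express, held most of the list's sum. That sum was 34.2 to 79.99 TPM in ICM and 31.5 to 64.6 TPM in TE. Of these 6 markers 2 were tested. From the morula 1 rose (1.54) and 1 fell (-3.62) in ICM, against 8.93% and 15.1% of all genes. In TE 0 rose and 1 fell, against 11% and 10.9%. Psma8, the alpha subunit of spermatocytes, reached 7.51 TPM as its median in CC and 3.08 at 8C, and was at 0 in at least 1 library of every other SCNT stage.

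**Figure D4:**
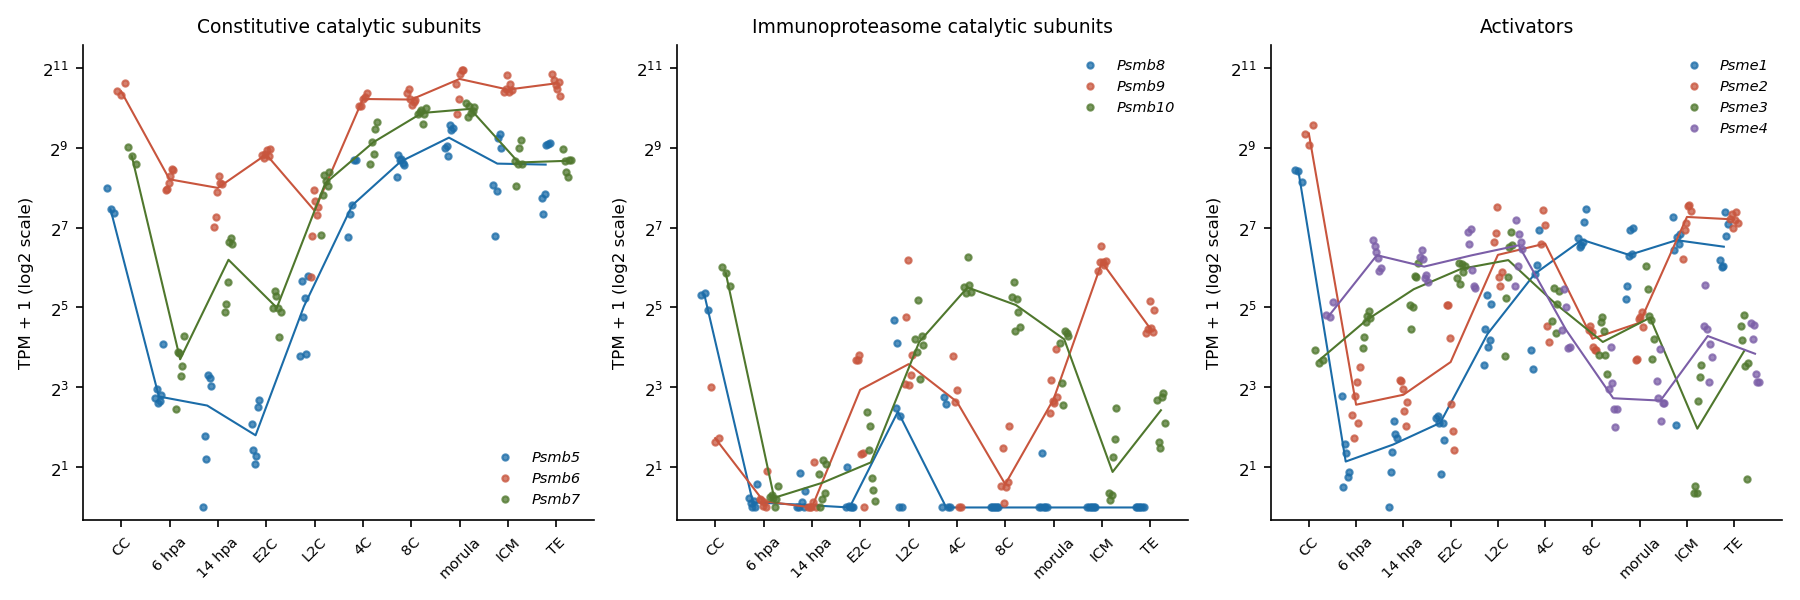
TPM + 1 (log2 axis) of the catalytic subunits, their immune counterparts and the activators, with a point for each library of CC and the SCNT stages and lines joining group medians. Psmb5, Psmb6 and Psmb7 converge by the morula, Psmb9 is highest in ICM (59.1 to 92.2 TPM), and Psme4 and Psme1 exchange rank between the 1-cell stage and 8C.

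The activators changed over. PA28 alpha and beta, encoded by Psme1 and Psme2 and known for antigen processing, had medians of 338 and 652 TPM in CC, 1.22 and 4.94 at 6 hpa, and 19.2 and 78.6 at L2C. Psme4 ran the other way, at medians of 27.2 TPM in CC, 78.2 at 6 hpa, 93.0 at L2C, 20.8 at 4C and 5.38 in the morula. As a share of the 4 activators Psme1 to Psme4, Psme4 thus went from a median of 2.87% in CC to 69.7% at 6 hpa, 33.8% at L2C, 3.93% at 8C and 7.10% in ICM.

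Psme2 was low at 8C and in the morula. Its 4C libraries split, with 95.9, 172 and 133 TPM in replicates 1 to 3 and 22.1 and 16.7 TPM in replicates 4 and 5, the range of 8C. The fall from 4C to 8C rested on the first 3: in replicates 4 to 6 alone the difference was -0.36 (adjusted p = 0.483), and without 4C replicate 2 it was -1.37 (adjusted p = 0.0539). Its medians were 17.6 TPM at 8C, 23.6 in the morula, 153 in ICM and 146 in TE, and it rose from the morula by 2.75 ± 0.47 in ICM (adjusted p = 7.95e-06) and 2.82 ± 0.47 in TE. Psme1 was at medians of 56.4, 102 and 78.5 TPM from 4C to the morula and 102 TPM in ICM, where replicate 3 alone was at 3.15 TPM. Psme3 reached a median of 71.8 TPM at L2C and was at 16.6 TPM at 8C, and from the morula it fell in ICM (-3.02 ± 0.51). In replicates 4 to 6 alone that fall was -1.04 (adjusted p = 0.107). Psme4 was higher in ICM than in the morula (1.39 ± 0.36), with overlapping libraries. Without ICM replicates 1 to 3 this difference was 0.79 (adjusted p = 0.176). The inhibitor Psmf1 was at medians of 12.7 TPM at 6 hpa, 6.57 at L2C and 51.0 in the morula.

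Assembly factors kept the most even sum, with medians of 533 TPM in CC and 362 to 891 TPM across the SCNT stages. Their members alternated: Psmg1 was at a median of 228 TPM at 6 hpa and its partner Psmg2 at 0.644 TPM, whereas at 4C they were at 71.7 and 98.4 TPM. Psmg3 was at a median of 26.3 TPM at 6 hpa and 146 at 8C. Psmd10 had its highest SCNT median at 14 hpa, 132 TPM, and its lowest at L2C, 11.6 TPM.

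In the morpholino experiment proteasome genes were higher in Max MO and in Mcrs1 MO blastocysts than in the controls. The 50 genes summed to 14370 and 16137 TPM in control ICM, 23032 and 25128 in Max MO ICM and 24913 and 25472 in Mcrs1 MO ICM. In TE the sums were 13435 and 15903 TPM in controls, 23252 and 23332 in Max MO and 26344 and 27194 in Mcrs1 MO. All 8 morpholino libraries lay above all 4 controls, and those 2 comparisons within a lineage share their control libraries.

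The difference in summed TPM was larger for the 20S core than for the 19S particle in all 4 morpholino groups. The 14 core genes summed to 5196 and 5890 TPM in control ICM, 10408 and 11768 in Max MO ICM and 11027 and 11593 in Mcrs1 MO ICM, and to 4751 and 6210 TPM in control TE, 9998 and 10313 in Max MO TE and 11984 and 12058 in Mcrs1 MO TE. For the 17 genes of the 19S particle the sums were 8305 and 9201, 11006 and 11846, and 12613 and 12651 TPM in ICM, and 7905 and 8760, 11760 and 12249, and 13139 and 14021 TPM in TE, in the same order. The median 20S to 19S ratio was 0.693 and 0.738 in control ICM, 1.09 and 1.23 in Max MO ICM and 0.947 and 0.975 in Mcrs1 MO ICM, and in TE 0.643 and 0.738, 0.829 and 0.910, and 0.848 and 0.932. No morpholino library overlapped the controls of its lineage in this ratio.

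Of the 47 genes tested among 11219, 15 rose and 0 fell in Max MO ICM, against 8.65% of all genes higher and 15.1% lower, with a median log2 difference of 0.72 against -0.21. In Max MO TE 3 rose and 0 fell, against 1.04% and 1.45% (0.71 against -0.19). In Mcrs1 MO ICM 9 rose and 0 fell, against 4.88% and 5.21% (0.64 against -0.05), and in Mcrs1 MO TE 11 rose and 0 fell, against 1.77% and 3.31% (0.76 against -0.24). At an unadjusted p under 0.05 2, 1, 0 and 1 of the 47 were lower in these comparisons, in the same order. Of the 14 core 20S genes 8, 3, 7 and 10 rose in these comparisons and of the 17 genes of the 19S particle 1, 0, 0 and 1. The median log2 difference of the 20S and the 19S genes was 1.05 and 0.26 in Max MO ICM, 0.93 and 0.47 in Max MO TE, 1.02 and 0.55 in Mcrs1 MO ICM and 1.12 and 0.73 in Mcrs1 MO TE.

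Psma2, an alpha ring subunit, and the beta ring subunits Psmb3 and Psmb4 were called in all 4 comparisons. Psma2 was at 279 and 311 TPM in control ICM, 764 and 627 in Max MO ICM and 828 and 767 in Mcrs1 MO ICM, and at 288 and 328 TPM in control TE, 674 and 590 in Max MO TE and 898 and 928 in Mcrs1 MO TE. Its rises were 1.23 ± 0.17 (adjusted p = 0.00116), 1.03 ± 0.17 (0.0226), 1.43 ± 0.17 (0.00333) and 1.57 ± 0.17 (0.00259) for Max MO ICM, Max MO TE, Mcrs1 MO ICM and Mcrs1 MO TE. The controls and the morpholino libraries did not overlap for any of the 3 genes.

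Psmb3 was at 429 and 494 TPM in control ICM, 1294 and 1186 in Max MO ICM, 1246 and 1076 in Mcrs1 MO ICM, 374 and 593 in control TE, 1127 and 1156 in Max MO TE and 1305 and 1314 in Mcrs1 MO TE. Psmb4 was at 269 and 298, 769 and 578, 553 and 647, 191 and 260, 505 and 506, and 618 and 635 TPM in the same order. Psmb3 rose by 1.28 to 1.47 and Psmb4 by 1.08 to 1.49 on the log2 scale.

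Other genes were called in fewer comparisons. In Max MO ICM Psme1 was at 137 and 174 TPM against 32.1 and 70.6 in controls (1.67 ± 0.35, adjusted p = 0.00639) and Psme2 at 165 and 171 TPM against 44.1 and 57.4 (1.72 ± 0.25, adjusted p = 0.00146). Psmd4 was at 1207 and 1292 TPM against 515 and 647 (1.11 ± 0.17), Psma7 at 1746 and 1686 against 759 and 757 (1.18 ± 0.14), and the chaperones Psmg4 and Psmd9 rose by 1.59 and 1.54. Psmc3ip, counted among the called genes though no part of the proteasome, was at 58.2 and 72.3 TPM against 34.3 and 25.7 (1.10). In Mcrs1 MO ICM Psma6 rose by 1.38 ± 0.19, Psmd10 by 1.26 ± 0.29 and Psmd9 by 1.25 ± 0.32. In Mcrs1 MO TE Psma4 rose from 289 and 343 TPM to 819 and 803 TPM (1.36 ± 0.16) and the ATPase Psmc2 by 1.11 ± 0.16. Psma7 and Psma6 rose in 3 comparisons each, in both ICM groups and in Mcrs1 MO TE. Whether the morpholinos differ for these genes was not tested.

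Psme4 lay below the controls in every morpholino library and did not pass the test in any comparison. It was at 24.0 and 18.8 TPM in control ICM, 9.86 and 9.43 in Max MO ICM, 14.3 and 16.4 in Mcrs1 MO ICM, 24.3 and 19.8 in control TE, 7.82 and 8.62 in Max MO TE and 5.89 and 12 in Mcrs1 MO TE. The log2 differences were -1.06, -1.32, -0.45 and -1.28 for Max MO ICM, Max MO TE, Mcrs1 MO ICM and Mcrs1 MO TE, with adjusted p from 0.0795 to 0.51. Psmb5 was at 263 and 393 TPM in control ICM and 646 and 806 in Max MO ICM, at 164 and 354 TPM in control TE and 431 and 519 in Max MO TE. Psmb9 was at 14.9 and 69.6 TPM in control ICM and 2.52 and 4.79 TPM in control TE, and at 45.3 and 105 TPM in Max MO ICM and 14.0 and 33.0 TPM in Mcrs1 MO ICM. The higher of the control ICM libraries was replicate 2, the library with few TE markers.

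**Figure D5:**
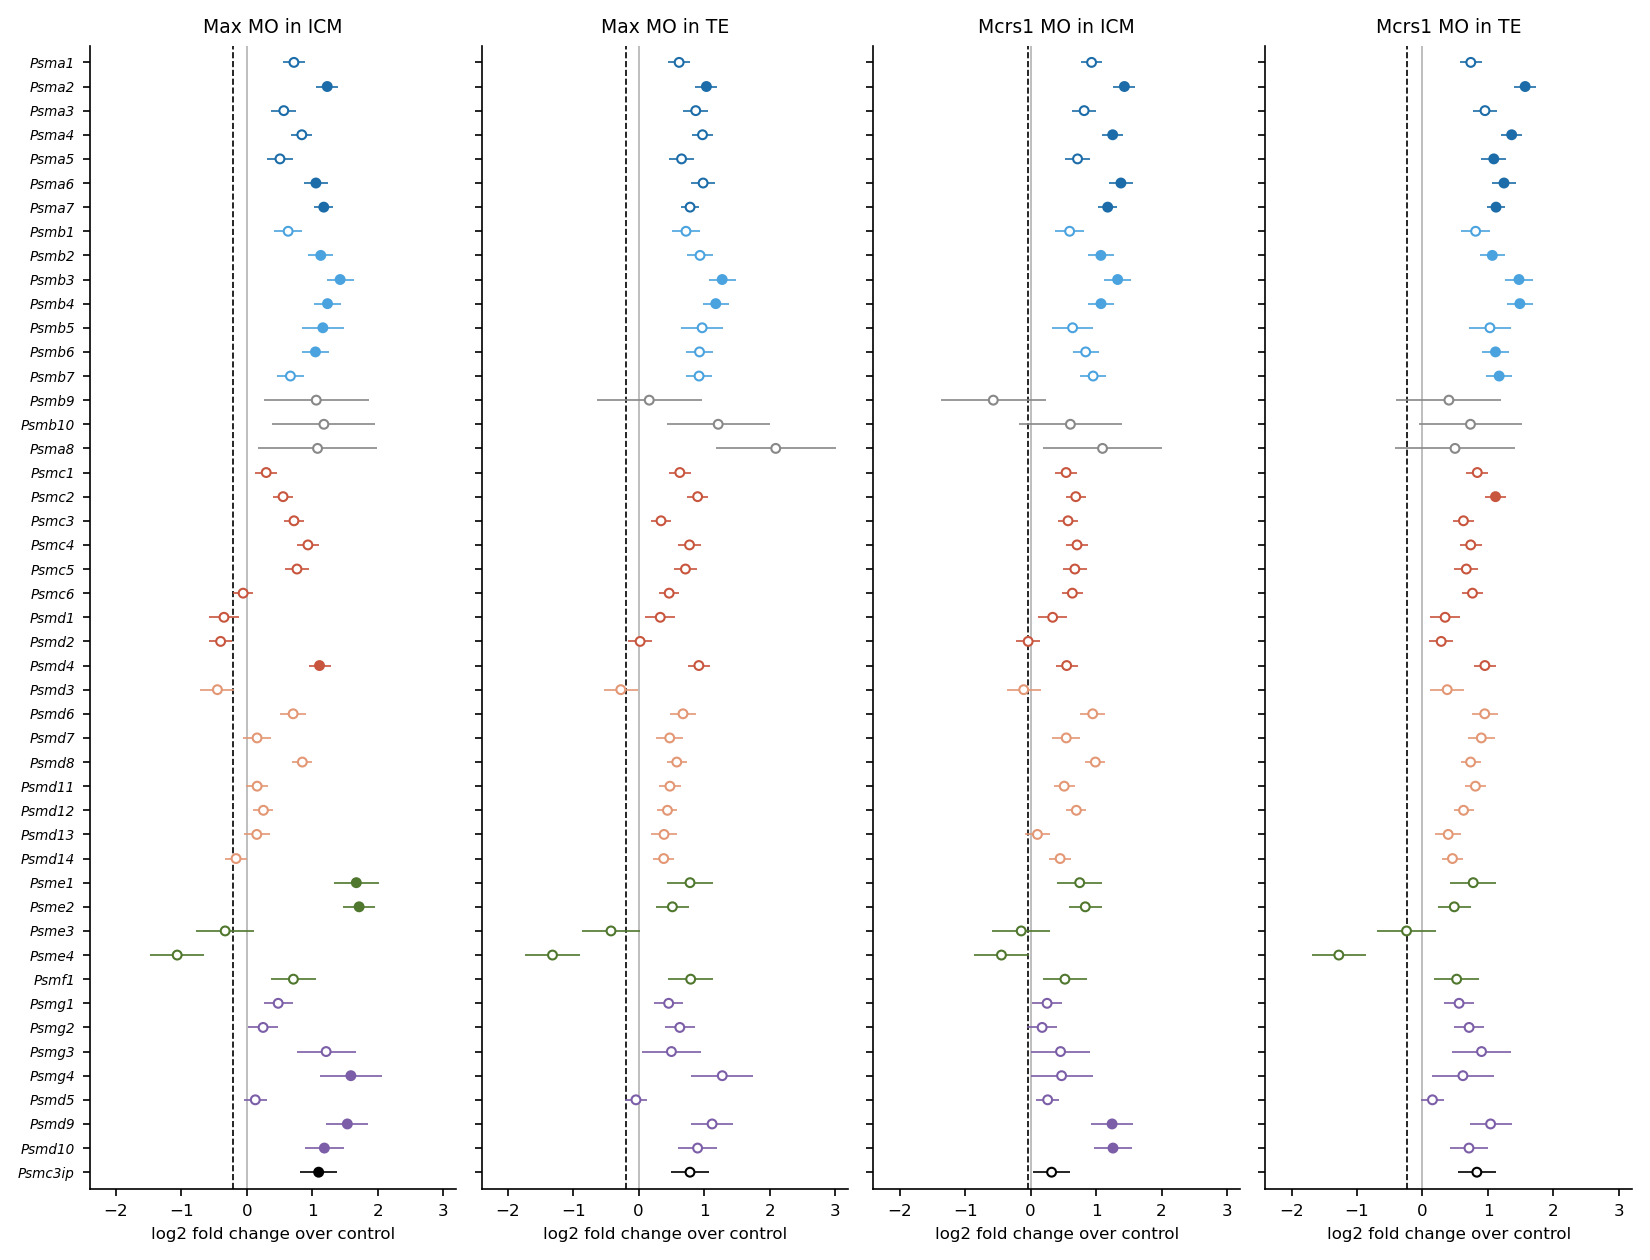
Log2 difference from control in log2(TPM + 1), with standard errors, for the 47 tested genes in the 4 morpholino comparisons, in order of role. Filled points passed the test, the dashed line is the median of all genes tested, and points of the 20S core lie at 0.51 to 1.57 and Psme4 lies below 0 in all 4.

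Non-overlap without a test ran the same way. Both morpholino libraries lay above both controls for 36 of 47 genes in Max MO ICM (23.5% of all genes), 40 in Max MO TE (21.2%), 35 in Mcrs1 MO ICM (23.3%) and 40 in Mcrs1 MO TE (22%), and below for 3, 3, 1 and 2 (33.4%, 36.3%, 26.4% and 40.3%). The response in ICM and in TE was compared through an interaction term, which by limma called 0 of 47 genes and 0% of all 11219 genes for either morpholino, so it says nothing particular about the proteasome. At an unadjusted p under 0.05 it had 3 of the 47 and 1473 of all genes for Max MO and 0 and 972 for Mcrs1 MO. Control ICM and TE differed in 0 of 47 genes by limma, with 6 at an unadjusted p under 0.05, against 1.72% and 1.2% of all genes called.

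Several measures moved with the morpholino groups. Reference genes held 85.5 to 90.3% of TPM in the 4 controls and 93.6 to 94.4% in the 8 morpholino libraries. TE markers summed to 2794 and 5936 TPM in Max MO ICM and 11661 and 8161 TPM in Mcrs1 MO ICM. ICM markers summed to 1492 and 2046 TPM in control ICM, 1186 and 1321 in Max MO ICM and 447 and 1055 in Mcrs1 MO ICM, where 2 of 7 tested were called lower. Primitive endoderm markers summed to 35.8 and 35.0 TPM in control ICM, 264 and 78.6 in Max MO ICM and 86.2 and 81.3 in Mcrs1 MO ICM, with 2 of 4 tested called higher in each. Oocyte markers summed to 21.4 and 38.4 TPM in control ICM, 83.2 and 83.5 in Max MO ICM, where 2 of 3 tested were called higher, and 18.4 and 35.1 in Mcrs1 MO ICM. The part of these cell type markers in the result was not tested. Without control ICM replicate 1, whose TE marker sum was like that of TE, 10 genes were called in Max MO ICM and 10 in Mcrs1 MO ICM, all higher. The 50 genes have short transcripts, with a median of 1895 bases against 2701 for all genes, and with a trend on transcript length removed from each library, an alternative chosen after seeing the data, 6, 5, 4 and 9 rose in Max MO ICM, Max MO TE, Mcrs1 MO ICM and Mcrs1 MO TE. The medians of the 47 were then 0.44, 0.55, 0.47 and 0.71, against 0.05 to 0.06 for all genes. Mcrs1 MO ICM gave 0 calls when fitted with the ICM libraries alone. In Max MO TE no gene was called once any 1 of the 4 libraries was left out, and in Mcrs1 MO TE none was without Mcrs1 MO TE replicate 2, 3 without its replicate 1 and 4 without control TE replicate 1.

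The promoters of these genes can be read beside the morpholino results because Max encodes the partner through which Myc family factors bind the E-box letters CACGTG. Upstream windows of 250 bases were found for 42 of the 50 genes in the RefSeq table (mouse build GRCm38.p6). CACGTG, which reads the same on both strands, occurred in 4 of 42 windows (9.52%) and in 6.05% of the windows of all 27025 promoters. The windows that hold it follow, with the motif in capitals, each written 5′ to 3′ on the strand of its gene and ending at the base before the start that RefSeq gives: Psma4 at chr9:54950609-54950858 (+), Psmb10 at chr8:105938393-105938642 (-), Psmd9 at chr5:123227940-123228189 (+) and Psme3 at chr11:101315963-101316212 (+). For Psme3 the start in the deposited files lies 38 bases further on, and for the others the starts are the same. In Psmd9 the second capital run is the TGACNNNGC described next.
Psma4: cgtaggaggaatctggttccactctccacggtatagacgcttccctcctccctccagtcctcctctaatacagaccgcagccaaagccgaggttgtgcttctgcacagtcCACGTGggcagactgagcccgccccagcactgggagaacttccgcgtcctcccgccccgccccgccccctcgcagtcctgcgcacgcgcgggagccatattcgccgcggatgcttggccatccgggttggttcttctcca
Psmb10: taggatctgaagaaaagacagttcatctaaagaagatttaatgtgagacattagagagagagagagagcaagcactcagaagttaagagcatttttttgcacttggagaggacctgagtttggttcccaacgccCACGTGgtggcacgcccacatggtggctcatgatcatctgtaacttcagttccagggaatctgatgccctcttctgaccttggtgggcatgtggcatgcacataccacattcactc
Psmd9: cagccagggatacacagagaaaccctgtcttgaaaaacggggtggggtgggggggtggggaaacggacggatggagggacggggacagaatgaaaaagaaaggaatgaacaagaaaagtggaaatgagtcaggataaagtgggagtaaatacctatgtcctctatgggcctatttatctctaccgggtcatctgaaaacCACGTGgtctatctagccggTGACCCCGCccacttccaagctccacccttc
Psme3: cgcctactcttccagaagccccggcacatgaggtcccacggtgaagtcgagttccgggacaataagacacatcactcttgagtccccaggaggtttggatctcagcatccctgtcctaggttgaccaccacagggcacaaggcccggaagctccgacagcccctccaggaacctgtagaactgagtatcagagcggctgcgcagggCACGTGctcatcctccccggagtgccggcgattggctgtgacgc

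The motif begins 140, 116, 51 and 44 bases before the start in these 4 genes. Psma4 rose in both Mcrs1 MO groups. In Max MO ICM and TE its log2 differences of 0.84 and 0.98 passed the adjusted p but not the 2-fold limit, and it was at 627 and 546 TPM in Max MO ICM against 310 and 343 in controls. Psmd9 rose in both ICM comparisons, and Psme3 and Psmb10 were not called in any. Of the 15 genes called in Max MO ICM, Psmd9 was the only one with the motif in its window, and Psmb2 had no window in the table.

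TGACNNNGC, the antioxidant response letters that NFE2L1 and NFE2L2, known regulators of proteasome genes, are known to bind, was searched on both strands and occurred in 5 of 42 windows (11.9%) against 10.1% of all. Those of 2 catalytic subunits are shown because their courses through the early embryo differed: Psmb5 at chr14:54617996-54618245 (-), where it begins 47 bases before the start, and Psmb6 at chr11:70525107-70525356 (+), where it is the last 9 bases of the window. The others were Psmc6, Psmd12 and Psmd9.
Psmb5: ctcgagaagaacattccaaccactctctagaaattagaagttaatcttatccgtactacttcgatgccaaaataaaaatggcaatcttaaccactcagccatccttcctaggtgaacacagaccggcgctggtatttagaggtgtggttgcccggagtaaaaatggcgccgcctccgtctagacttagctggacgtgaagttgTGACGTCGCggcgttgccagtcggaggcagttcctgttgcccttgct
Psmb6: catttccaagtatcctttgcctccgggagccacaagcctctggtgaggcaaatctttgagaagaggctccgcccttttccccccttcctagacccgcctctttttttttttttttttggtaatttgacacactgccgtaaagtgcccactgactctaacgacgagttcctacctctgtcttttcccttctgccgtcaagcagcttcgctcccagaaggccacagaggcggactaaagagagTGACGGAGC

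The other letters were searched on both strands too. CCGGAAG, the ETS type letters, stood in 28.6% of the members' windows and 7.05% of all, the motif of nuclear respiratory factor 1 in 14.3% and 3.86%, GGGCGG, the GC box, in 52.4% and 32.9%, and CCAAT in 35.7% and 34.5%. These are counts of letters with no test, and all of these but CCAAT are rich in G and C.

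Other genes of the pathway, a fixed list of 30 that act in ubiquitin supply, delivery or proteasome assembly, were read beside the subunits. Of the 30, 4 rose and 15 fell from CC to 6 hpa (25.8% and 35.6% of all genes), 5 rose and 2 fell from E2C to L2C (23.6% and 11.1%), 9 rose and 8 fell from L2C to 4C (11.7% and 26.5%), and 7 rose and 0 fell from 8C to morula (9.05% and 3.53%). The median log2 differences of the 30 in these steps were -1.48, 0.14, 0.21 and 0.65, against -2.21, 0.93, 1.34 and 0.43 for the 48 and -0.28, 0.26, -0.33 and 0.19 for all genes. Rps27a, which encodes ubiquitin fused to a ribosomal protein, fell from a mean of 503 to 4.92 TPM into the 1-cell embryo and rose from 43.4 to 152 TPM between E2C and L2C. Adrm1, a ubiquitin receptor of the proteasome, rose from 191 to 836 TPM from 4C to 8C (2.62, adjusted p = 0.000626). Nfe2l2 rose from 4.92 to 32.5 TPM from 8C to morula (2.74, adjusted p = 4.24e-06).

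The remaining counts of the 30 are given with the shares of all genes in parentheses. From 6 to 14 hpa 2 rose and 3 fell (6.17% and 5.02%), and from 14 hpa to E2C 2 and 0 (2.9% and 3.1%). From 4C to 8C 5 rose and 2 fell (11.6% and 8.39%). From the morula 2 rose and 6 fell in ICM (8.93% and 15.1%), and 2 and 4 in TE (11% and 10.9%). In SCNT ICM 0 were higher and 2 lower than in TE (1.54% and 4.25%). In the morpholino comparisons 4 rose and 6 fell in Max MO ICM (8.65% and 15.1%). In Max MO TE 0 rose and 0 fell by limma (1.04% and 1.45%), with 6 higher and 1 lower at an unadjusted p under 0.05. In Mcrs1 MO ICM 2 rose and 1 fell (4.88% and 5.21%), and in Mcrs1 MO TE 2 and 0 (1.77% and 3.31%). Pomp, the maturation factor of the 20S core, was at 231 and 260 TPM in control ICM, 604 and 533 in Max MO ICM and 549 and 519 in Mcrs1 MO ICM, and rose by 1.12 in Mcrs1 MO ICM (adjusted p = 0.00609) and 1.17 in Mcrs1 MO TE (adjusted p = 0.00827). Shfm1, the small lid subunit not named Psm, rose with it in both (1.35 and 1.5). Uba1, the main ubiquitin-activating enzyme, went the other way in ICM, from a mean of 427 to 91.6 TPM in Max MO (-2.05, adjusted p = 0.00356) and 137 TPM in Mcrs1 MO (-1.49, adjusted p = 0.0301).

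Genes of antigen presentation, of which 8 were tested, were followed beside the immune subunits. B2m, the light chain of class I molecules, fell from a mean of 1100 to 31.6 TPM between CC and 6 hpa and rose from 78.6 to 357 TPM between E2C and L2C, where Psmb8, Psmb9 and Psmb10 also rose. H2-D1, a class I heavy chain, rose from 20.9 TPM in the morula to 137 TPM in ICM (2.82, adjusted p = 8.37e-06) and 117 TPM in TE (2.29, adjusted p = 0.000219), beside the rises of Psmb9 and Psme2. From CC to 6 hpa 7 of the 8 fell, against 35.6% of all genes. Between E2C and L2C 2 of the 8 rose and 0 fell, against 23.6% and 11.1%. Shares of all genes are in parentheses for the next steps. From 14 hpa to E2C 1 of the 8 rose and 0 fell (2.9% and 3.1%). From L2C to 4C 1 rose and 1 fell (11.7% and 26.5%), and from 4C to 8C 0 and 3 (11.6% and 8.39%). From 8C to morula 4 rose and 0 fell (9.05% and 3.53%). By limma 0 were called from 6 to 14 hpa (6.17% and 5.02%), where 1 was lower at an unadjusted p under 0.05. From the morula 2 of the 8 rose in ICM and 1 in TE, against 8.93% and 11% of all genes. None of the 8 was called lower in either step, and Psmb10 fell in both. Between SCNT ICM and TE limma called 0 of the 8 (1.54% and 4.25%). At an unadjusted p under 0.05 1 was higher and 1 lower. In the morpholino comparisons 7 were tested. By limma 0 were called in Max MO ICM (8.65% and 15.1%), Max MO TE (1.04% and 1.45%) and Mcrs1 MO ICM (4.88% and 5.21%). At an unadjusted p under 0.05 these had 2, 0 and 1 higher and 1, 0 and 0 lower. In Mcrs1 MO TE 0 rose and 1 fell (1.77% and 3.31%).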

How the data were processed

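Each library's deposited table lists assembled transcripts with 3 measures. Per the file headers these are coverage (a read depth signal), FPKM and TPM, and the authors made them with StringTie after trimming with cutadapt 1.16 and alignment with HISAT2 to mm10. The submitters' processing notes name those tools, and Cufflinks and deepTools without a role here. The annotation release is not given in the sources used here. The authors deposited TPM over all assembled transcripts, new ones included. FPKM and coverage of rows at 10 FPKM or more were used here only to estimate aligned bases. The authors' methods name DESeq2, which needs counts, so it was not run.

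TPM was summed per gene over reference symbols. Genes with a mean of at least 1 TPM were tested with limma 3.58.1 (R 4.3.3, trended variance) on log2(TPM + 1), with Benjamini-Hochberg adjustment over all genes tested. A call needed an adjusted p under 0.05 and at least 2-fold, and a fold on this scale understates changes of low genes. CC and the 9 SCNT groups shared 1 fit and the 6 morpholino groups another, so groups of 2 borrowed their spread from the others. The 2 experiments were not compared. On simulated data with 200 changed genes the procedure was tested for E2C to L2C, where it recovered 135 with 7 false calls, and for Max MO in ICM, where it recovered 75 with 7 false calls.

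Replicate numbers were taken to pair libraries where, over at least 3 pairs, every same-numbered pair deviated together with r above 0.1. That held for 6 and 14 hpa (r 0.155 to 0.393, 6 pairs) and for SCNT ICM and TE (r 0.124 to 0.283, 6 pairs), where 1 and 2 of the 6 correlated best with their own number. This pairing is read from the data, as the labels give no shared batch. No pair of libraries held identical values. Depth is known only as aligned bases, so no counting interval is given.

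Named with values in a step were all called genes where at most 8 were called, otherwise the 2 of each role with the largest change, plus a fixed set of 21 described by level. The genes and lists were chosen with earlier results of these data known. Promoter windows are from RefSeq, and Psmc3, Psmg2, Psmb7, Psma8, Psmb1, Psmb2, Psmd7 and Psmd3 had none in the table. Transcript lengths are those of GENCODE vM21 and matched 95.7% of the reference genes. Figures and sums used Python 3.11.15. Alternatives are given in the closing section.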

Additional observations from a re-analysis of the deposited data

Results flagged for a closer look

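Within groups of 5 or 6 libraries the highest or lowest value was compared with the others by Dixon's ratio, which chance passes in about 1 of 20 groups. Of 153 such groups 17 passed. For the sum of the alpha ring, morula replicate 2 was at 6960 TPM and the others at 8710 to 9380 TPM. L2C replicate 1, the library with the lowest share of reference TPM, was low for the 19S base (308 TPM, others 640 to 915), the 19S lid (375 TPM, others 706 to 984), the activators (172 TPM, others 284 to 343) and Psmb7 (111 TPM, others 224 to 335). The 19S base was at 4980 TPM in SCNT ICM replicate 1 (others 6240 to 7100), and the 19S lid at 671 TPM in 6 hpa replicate 2 (others 456 to 501). At 6 hpa, replicate 6 was high for the alternative subunits (1.86 TPM, others 0.153 to 0.527), for Psmb5 (16.1 TPM, others 5.16 to 6.84) and for Psmb9 (0.883 TPM, others 0 to 0.15).

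Among single genes, Psmb7 was at 762 TPM in 8C replicate 4 (others 917 to 1010), Psmb10 at 75.6 TPM in 4C replicate 3 (others 40.3 to 45.9), Psme1 at 3.15 TPM in SCNT ICM replicate 3 (others 86.1 to 152) and Psme3 at 0.646 TPM in SCNT TE replicate 5 (others 10.7 to 26.9). Near zero, Psmb8 was at 1.01 TPM in E2C replicate 2 and 1.55 TPM in morula replicate 3, and Psmb9 at 1.2 TPM in 14 hpa replicate 5, with the other libraries of those groups at 0 to 0.106 TPM.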

How the results depend on the processing

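Of 259 counts of called genes under alternatives, 211 lay within 1.5 times the reported count in the same leading direction. Those that did not are given as totals called. By adjusted p alone the totals were 10 from 6 to 14 hpa, 14 from 14 hpa to E2C, 13 from morula to ICM, 12 from morula to TE, 25 and 13 for Max MO in ICM and TE, and 22 and 23 for Mcrs1 MO in ICM and TE. Quantile normalization gave 10 from 6 to 14 hpa, 8 from 4C to 8C, 0 between SCNT ICM and TE, 7 for Max MO in ICM and 5 for Mcrs1 MO in TE. Rescaling over reference genes gave 5 from 4C to 8C and 1 between SCNT ICM and TE, where no filter on low values also gave 1 and the 2 groups alone 0. Mcrs1 MO in ICM fitted with its lineage alone gave 0. Replicates 1 to 3 alone gave 8 from 6 to 14 hpa and 17 from 14 hpa to E2C, with the leading direction turned, and replicates 4 to 6 alone gave 13 from 6 to 14 hpa, 8 from 4C to 8C and 1, higher in ICM, between SCNT ICM and TE. In those replicates the difference of Psme3 between SCNT ICM and TE was 0.54 and that of Psmg2 from 14 hpa to E2C was -0.0037. Of 1609 single-gene values under alternatives, 150 lost their call.

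Libraries were left out one at a time for CC, 4C and the morpholino groups, not for the other SCNT groups apart from L2C replicate 1 and morula replicate 2. This gave 34 to 37 genes from CC to 6 hpa, 29 to 34 from L2C to 4C, 8 to 16 from 4C to 8C (8 without 4C replicate 1 or 2), 10 to 15 for Max MO in ICM, 0 for Max MO in TE, 4 to 11 for Mcrs1 MO in ICM (4 without its replicate 1), 0 to 15 for Mcrs1 MO in TE and 0 to 3 between control ICM and TE (3 without control ICM replicate 1). A lone library left in a group is assumed to vary like the others. With the replicate block, control ICM and TE differed in 1 gene, and no other count left the 1.5-fold range. Alternatives chosen after seeing the data were a trend on transcript length, which gave 14 from 14 hpa to E2C, 9 from 4C to 8C, 4 from 8C to morula, 6 and 5 for Max MO in ICM and TE and 4 for Mcrs1 MO in ICM, a trend on GC content, which gave 5 from 8C to morula, 10 from morula to TE, 1 between SCNT ICM and TE, 24 and 16 for Max MO in ICM and TE and 26 for Mcrs1 MO in TE, and SCNT ICM without replicates 1 to 3, which gave 0 between ICM and TE. The cause of these differences was not tested. With 2 libraries a group the morpholino comparisons rest on spread shared across groups, and TPM without counts leaves the depth behind a low value unknown.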
